A study of Mus musculus with 3 samples.

Results

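Translation initiation factors bring the initiator tRNA, the small ribosomal subunit and the capped end of an mRNA together and release the assembled ribosome at the start codon. eIF2 carries the initiator tRNA, eIF2B recharges eIF2 with GTP, eIF3 is a scaffold of many subunits on the small subunit, and the eIF4 proteins bind the cap and unwind the mRNA. Fibroblasts and embryonic stem cells both need this machinery, and inhibitors such as the 4E-BP proteins and the kinases of eIF2 set its rate. All protein-coding genes whose mouse symbol is Eif followed by a digit were taken, without the 4 Eif2ak kinase genes and without Eif2s3x and Eif2s3y on the sex chromosomes. This gave 49 of the 29267 genes with an expected count, and all 49 were among the 17810 genes with a count in some library. They comprise 2 genes of eIF2, 5 of eIF2B, 14 of eIF3, 11 of the eIF4 cap-binding and helicase proteins, 5 related to eIF1 and eIF1A, 4 binders of eIF4E, 5 of eIF5, eIF5A, eIF5B and eIF6, and Eif2a, Eif2d and Eif4a3.

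The series holds 1 RNA-seq library for each of 3 cultures, namely fibroblasts (MEFs) of the OG2 strain, MEFs of the ICR strain and embryonic stem cells (ESCs) of the R1 line. OG2 mice carry an Oct4-GFP transgene, and both MEF cultures were at passage 3 to 5, whereas the ESCs were at passage 30 and labelled naive. The labels name no treatment and no other introduced gene. MEFs are the starting cells of reprogramming and ESCs its reference end point, and the comparison was made between them.

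The expected counts, which are RSEM's estimates of reads per gene, summed to 5149312 and 4590619 in OG2 and ICR MEFs and to 1717838 in the ESC library, and 3 counts corresponded to 0.583, 0.654 and 1.75 CPM, the count scaled to library size. CPM were then adjusted with TMM factors and compared as log2(CPM + 1), and the difference of a gene is its value in the ESC library minus the average of OG2 and ICR MEFs. All 8 fibroblast markers were at least 1 log2 unit lower in the ESC library than in both MEF libraries. Their summed level was 25684 and 25801 CPM in OG2 and ICR MEFs and still 3888 CPM in the ESC library. Of 8 pluripotency markers, 4 (Zfp42, Esrrb, Dppa4 and Dppa5a) had 0 counts in it and Pou5f1, the highest, had 71, and their summed level was 112 CPM against 0.887 and 0.967 CPM in MEFs. The summed level of 6 epithelial markers was 450 CPM against 7.81 and 13.5 CPM in MEFs, with Krt5 at 0 and Krt14 at 414 counts. The 3 blood markers together were at 1.43 CPM, against 4.44 and 1.16 CPM in OG2 and ICR MEFs. The 3 neural markers were at 25.1 CPM, against 104 and 134 CPM. Over all genes with a count, the SD of the difference was 1.86, against 0.413 between the MEF libraries. The part of these properties in the values below was not tested, and the library is called the library labelled ESC. In such bulk libraries a smaller share of a cell type and less RNA per cell cannot be told apart.

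The initiation factors made up 1.24% (OG2 MEFs), 1.18% (ICR MEFs) and 1.91% (library labelled ESC) of all counts, so these mRNAs were abundant in each. Relative to both MEF libraries, 17 of the 49 genes (34.7%) were higher by 1 log2 unit or more in the library labelled ESC, where 21.9% of all genes with a count were. At least 1 log2 unit lower were 8 (16.3%), against 25.9% of all genes. The median difference of the 49 genes was 0.38, and that of all genes -0.13. By the quasi-likelihood test of edgeR, adjusted by Benjamini-Hochberg over all 12663 genes tested, 26 of the 48 factors tested were higher at an adjusted p under 0.05 (54.2%, against 31.4% of all genes) and 13 were lower (27.1%, against 36% of all genes). With 1 residual degree of freedom, all of its spread is that of OG2 against ICR MEFs, so the p-values measure a spread between strains and say nothing of the spread among ESC cultures. With TPM, a level scaled by transcript length, in place of CPM, 11 of the 49 (22.4%) were at least 1 log2 unit higher than both MEF libraries and 26 (53.1%) at least 1 log2 unit lower, against 9.12% and 43.2% of all genes. "Rose" and "fell" are used below only for genes past edgeR's test.

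The complexes differed in how unequal the differences of their subunits were. Between the MEF libraries no factor differed by 1 log2 unit, with Eif3j1 (-0.91) and Eif4a2 (0.52) the farthest apart. In the library labelled ESC, subunits of eIF2B, eIF3 and eIF4 went in opposite directions or differed by several log2 units from each other. The largest positive differences were those of Eif4ebp3 (4.58), Eif5b (3.19) and Eif2b4 (3.10), and the largest negative ones those of Eif5a2 (-4.24) and Eif4ebp2 (-4.01), a range in which 24 genes passed the fold threshold in neither direction.

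**Figure D1:**
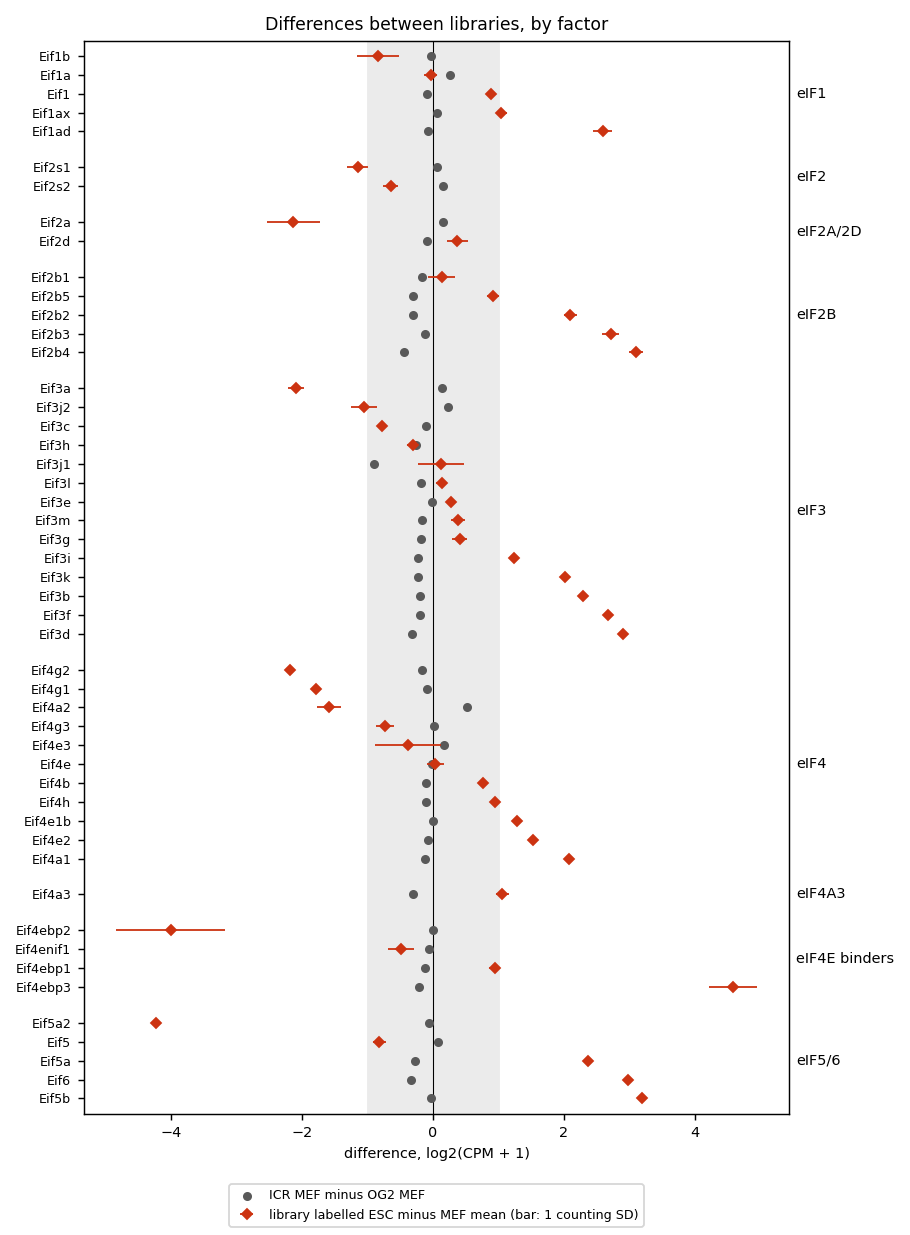
Difference in log2(CPM + 1) for each of the 49 genes, grouped by complex. Red diamonds give the difference of the library labelled ESC from the MEF average, with a bar of 1 SD of counting error (none is drawn for Eif5a2 and Eif4e1b, which have a library at 0), and grey circles are ICR minus OG2 MEFs. The shaded band marks differences under 1 log2 unit. The grey circles all lie inside it, while the red diamonds run from -4.24 to 4.58, and with TPM in place of CPM 13 of them change sign, among them Eif1ax, Eif3i and Eif4e2 from the 17 higher genes.

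eIF2 delivers the initiator tRNA, and its alpha subunit is the target of the stress kinases. The alpha subunit gene Eif2s1 (chromosome 12 of GRCm38, 78861819 to 78887010, plus strand) had 726 (OG2 MEFs), 696 (ICR MEFs) and 82 counts (library labelled ESC), which are 80.0, 89.6 and 12.8 TPM. The beta subunit gene Eif2s2 had 1143, 1170 and 190 counts, or 182, 223 and 50.4 TPM. Both MEF libraries lay above the library labelled ESC on the TPM scale for each subunit. Both fell by edgeR's test, Eif2s1 with a difference of -1.15 (adjusted p 0.0012) and Eif2s2 with -0.65 (adjusted p 0.0408) in log2(CPM + 1), the scale of all differences given without one, and Eif2s1 was past the fold threshold. The SD of the difference over these 2 subunits was 0.354, and that between the MEF libraries 0.0667.

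eIF2B is the guanine nucleotide exchange factor that reactivates eIF2. Its alpha, beta and delta subunits (Eif2b1, Eif2b2 and Eif2b4) form the regulatory part, and gamma and epsilon (Eif2b3 and Eif2b5) the catalytic part. In OG2 MEFs, ICR MEFs and the library labelled ESC, Eif2b1 had 223, 181 and 57 counts, or 49.6, 47.2 and 15.5 TPM. Eif2b2 had 324, 239 and 312 counts, or 96.5, 103 and 339 TPM. Eif2b4 had 225, 150 and 417 counts, or 62.4, 46.2 and 128 TPM. Of the regulatory part, the beta and delta subunits were therefore higher per length in the library labelled ESC than in both MEF libraries, while the alpha subunit was lower in TPM. Of the catalytic part, Eif2b3 had 150, 126 and 241 counts, or 38.0, 36.8 and 206 TPM. Eif2b5 had 729, 541 and 308 counts, or 103, 74.7 and 218 TPM. Both catalytic subunits had their highest TPM in the library labelled ESC, and RSEM gave Eif2b5 a transcript length there of 0.294 times the MEF mean.

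On the log2(CPM + 1) scale, 4 of the 5 eIF2B genes rose, against 31.4% of all genes tested, namely Eif2b4 by 3.10, Eif2b3 by 2.71, Eif2b2 by 2.10 and Eif2b5 by 0.92, with adjusted p-values of edgeR between 8.57e-07 and 6.43e-04. Eif2b1 differed by 0.13 (adjusted p of edgeR 0.242), and by -1.58 with TPM. The 3 largest of these differences were past the fold threshold. Summed over the complex, eIF2B was at 350.1 and 308 TPM in OG2 and ICR MEFs and at 906 TPM in the library labelled ESC, while the eIF2 subunits Eif2s1 and Eif2s2 together were at 262, 312 and 63.1 TPM. The library labelled ESC thus had the highest sum for eIF2B and the lowest for Eif2s1 and Eif2s2, a sum without the eIF2 genes Eif2s3x and Eif2s3y. Within eIF2B, the highest subunit was 2.72 and 2.79 times the lowest in OG2 and ICR MEFs and 21.9 times in the library labelled ESC. The 21.9 sets Eif2b2 (312 counts) against Eif2b1 (57 counts), whose RSEM lengths there were 0.488 and 1.14 times the MEF mean. Those of Eif2b3, Eif2b4 and Eif2b5 were 0.464, 1.20 and 0.294 times. The sum and the ratio in TPM therefore also carry changes in estimated length. Some exons of Eif2b4 overlap those of Snx17 on the other strand, whose reads cannot be told apart where the counting does not use strand.

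eIF3 is the largest initiation factor. Its subunits a, b, c, g and i are shared with budding yeast, most of the others carry PCI or MPN folds, and j is bound loosely. In both MEF libraries the 12 subunits other than j lay close together, from 177 TPM (Eif3a) to 584 TPM (Eif3h) in OG2 MEFs and from 208 to 519.5 TPM for the same genes in ICR MEFs. In the library labelled ESC they ran from 15.1 TPM (Eif3a) to 692 TPM (Eif3k). The highest of them was 3.30 and 2.49 times the lowest in OG2 and ICR MEFs, and 45.7 times in the library labelled ESC. These ratios are taken within a library and do not depend on the scaling between libraries. In MEFs, however, Eif3a had the longest transcript of the 12 (5176 bases) and Eif3k the shortest (773 bases). Over all genes the difference fell with transcript length (Pearson's r -0.311 with its log2), and the part of length in these ratios was not tested.

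**Figure D2:**
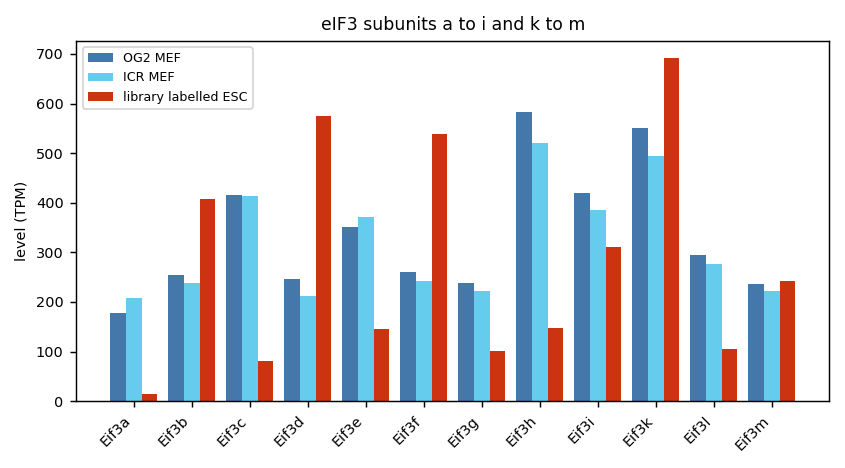
Level in TPM of the eIF3 subunits a to i and k to m in each library, as bars from 0. The MEF bars lie between 177 and 584 TPM, while those of the library labelled ESC run from 15.1 TPM for Eif3a to 692 TPM for Eif3k.

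Among the subunits shared with budding yeast, Eif3a, whose product is the largest subunit and a scaffold for the others, had 2486 (OG2 MEFs), 2505 (ICR MEFs) and 150 counts (library labelled ESC), or 177, 208 and 15.1 TPM. Eif3b, which holds g and i on the ribosome, had 1991, 1598 and 2261 counts in the same order, or 254, 238 and 407 TPM. Eif3b was thus near Eif3a in MEFs, at 1.44 and 1.14 times its TPM, and at 26.9 times its TPM in the library labelled ESC. Eif3c had 3752, 3193 and 520 counts, or 416, 414 and 81.5 TPM. The RNA-binding subunit gene Eif3g had 599, 483 and 185 counts, or 237, 221 and 101 TPM. Eif3i, which encodes a WD-repeat subunit, had 1111, 868 and 598 counts, or 419.5, 385 and 310.0 TPM. By edgeR, Eif3a fell, with -2.09 (adjusted p 3.39e-05), as did Eif3c, with -0.78 (adjusted p 0.0158), and Eif3b rose by 2.29 (adjusted p 3.91e-06). Eif3i and Eif3g were also past the test, with 1.23 and 0.41 on the CPM scale, but their differences were -0.37 and -1.18 with TPM, so their direction depends on the scale.

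The SD of the difference over the remaining subunits d, e, f, h, k, l and m was 1.33, against 1.71 over a, b, c, g and i. Eif3d, whose product can bind the cap of some mRNAs, had 1205, 885 and 1999 counts in OG2 MEFs, ICR MEFs and the library labelled ESC, or 247, 211 and 575 TPM. Eif3f had 1707, 1366 and 2510 counts, or 259.7, 242 and 538 TPM. Eif3k had 922, 720 and 858 counts, or 551, 493 and 692 TPM. These 3 genes had more TPM in the library labelled ESC than in either MEF library, and rose by 2.90, 2.66 and 2.02 on the CPM scale (adjusted p of edgeR 1.61e-06, 1.74e-06 and 6.55e-06). Eif3h, which like Eif3f carries an MPN fold, had 1766, 1356 and 322 counts, or 584, 519.5 and 147 TPM. Eif3e had 1349, 1224 and 402 counts, or 352, 371 and 146 TPM. Eif3l, one of the PCI-fold subunits, had 1423, 1145 and 362 counts, or 295, 276 and 105 TPM. Levels of these last 3 in TPM were lower in the library labelled ESC than in both MEF libraries, while their CPM differences were -0.31, 0.27 and 0.13, of which that of Eif3e was past edgeR's test (adjusted p 0.0399). Eif3m had 730, 595 and 222 counts, or 237, 221 and 241 TPM, and it rose by 0.38 on the CPM scale (adjusted p of edgeR 0.0179). Its TPM in the library labelled ESC was just above both MEF libraries, with a transcript length of 0.478 times the MEF mean.

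Eif3j1 and Eif3j2 are near-identical copies of the gene for subunit j, and RSEM divided reads between them, so their values are uncertain. Eif3j1 had 103, 48 and 20 counts and Eif3j2 441, 473 and 56, or 7.02, 4.90 and 1.95 TPM for Eif3j1 and 71.2, 89.1 and 12.8 TPM for Eif3j2. Eif3j1 differed more between the MEF libraries than any other factor did, by -0.91 for ICR minus OG2. Over all 14 eIF3 genes, 8 rose and 3 fell by edgeR's test, against 31.4% and 36% of all genes tested, but with TPM the direction of Eif3e, Eif3g and Eif3i among those that rose was the opposite. The SD of the difference over the 14 genes was 1.47, where counting error alone gives 0.130, and the SD between the MEF libraries was 0.256. Without Eif3j1 and Eif3j2, a choice made after the values were seen, these were 1.51 and 0.120. The SD over eIF3 was thus above the counting error and the spread between strains, but below the SD of the same difference over all genes with a count, 1.86, and over those with 10 or more counts in a library, 2.12.

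Sequence just upstream of the start is shown for 1 eIF3 gene that fell and 3 that rose, and for the helicase gene Eif4a1, so that the promoters of subunits that parted can be compared. The 100 bases before the start that RefSeq gives on GRCm38.p6 are printed 5′ to 3′ on the gene's strand, with matches to the motifs of the next paragraph in capitals.
Eif3a (chr19:60790694-60790793, minus strand): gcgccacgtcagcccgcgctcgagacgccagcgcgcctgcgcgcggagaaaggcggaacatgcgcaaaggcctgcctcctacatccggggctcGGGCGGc
Eif3b (chr5:140419205-140419304, plus strand): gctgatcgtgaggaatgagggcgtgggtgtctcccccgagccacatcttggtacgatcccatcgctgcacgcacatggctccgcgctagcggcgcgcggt
Eif3d (chr15:77970825-77970924, minus strand): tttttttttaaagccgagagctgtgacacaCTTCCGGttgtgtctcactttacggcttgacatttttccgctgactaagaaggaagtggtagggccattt
Eif3f (chr7:108934315-108934414, plus strand): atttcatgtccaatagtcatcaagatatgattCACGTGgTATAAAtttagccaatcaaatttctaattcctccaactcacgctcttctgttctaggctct
Eif4a1 (chr11:69672424-69672523, minus strand): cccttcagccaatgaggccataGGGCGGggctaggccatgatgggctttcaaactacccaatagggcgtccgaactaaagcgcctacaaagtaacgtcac

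The GC content of these windows was 74% for Eif3a, 66% for Eif3b, 44% for Eif3d, 36% for Eif3f and 55% for Eif4a1, so that the higher genes Eif3b, Eif3d and Eif3f include both GC-rich and AT-rich starts. RefSeq promoters matched 37 of the 49 factors, and 6 motifs were searched on both strands of the 250 bases before the start, using the first start listed for each gene. The GC box GGGCGG was present in 27 of these 37 promoters (73.0%) and in 32.9% of all 27025 promoters. The 37 were also richer in GC, with a median of 61.2% against 52% of all promoters, and the shares below are not adjusted for this. The ETS site CCGGAAG was present in 10 (27%, against 7.05%), and the E-box CACGTG, which MYC proteins can bind, in 7 (18.9%, against 6.05%). The TATA box TATAAA was present in 3 (8.11%, against 13.0%), the NRF1 site in 1 (Eif3k, against 0.781%) and the YY1 site AAGATGGC in 1 (Eif4a1, against 1.59%). Among the promoters of the higher genes 7 of 12 held a GC box, and among those of the lower genes 7 of 7. Their median GC content was 58.8% and 66.4%. The E-box and the TATA box of Eif3f lie side by side in the printed window, and its GC content was the lowest of the 5. A match describes these letters and shows no binding.

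The eIF4 proteins recruit mRNA. Eif4e encodes the cap-binding protein, Eif4g1 and Eif4g3 its scaffold partners, Eif4a1 and Eif4a2 the RNA helicase, and Eif4b and Eif4h its cofactors. Eif4a1 (chromosome 11, 69666936 to 69672423, minus strand) had 4884 (OG2 MEFs), 4121 (ICR MEFs) and 4903 counts (library labelled ESC), or 1089, 1099 and 2031 TPM. Its paralog Eif4a2 had 656, 867 and 64 counts, or 151, 231 and 17.0 TPM. The helicase paralogs went apart, since Eif4a1 rose by 2.08 (adjusted p of edgeR 7.00e-06) and Eif4a2 fell by 1.59 (adjusted p of edgeR 0.00135). The TPM of Eif4a1 was 7.23 and 4.75 times that of Eif4a2 in OG2 and ICR MEFs and 119 times in the library labelled ESC. Exons of Eif4a2 overlap genes of small nucleolar RNAs on the same strand and those of Rfc4 on the other strand. Those of Eif4a1 overlap the gene models Gm24029 and Gm22988 on the same strand.

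The scaffold genes were all lower in the library labelled ESC. Eif4g1 had 4907, 4210 and 339 counts in the same order of libraries, or 349.9, 355 and 37.9 TPM. Eif4g2, which encodes a relative that lacks the site for eIF4E and acts in cap-independent initiation, had 7981, 6492 and 408 counts, or 742, 791 and 48.6 TPM. Eif4g3 had 788, 730 and 117 counts, or 53.0, 53.4 and 10 TPM. Eif4g2, Eif4g1 and Eif4g3 fell, with differences of -2.18, -1.79 and -0.74 (adjusted p of edgeR 3.38e-05, 8.80e-05 and 0.0172). The TPM of Eif4g1 was 4.47 and 4.30 times that of Eif4e in OG2 and ICR MEFs and 1.36 times in the library labelled ESC.

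The cap-binding genes differed among themselves. Eif4e had 595, 538 and 150 counts, or 78.2, 82.6 and 27.8 TPM. Eif4e2, whose product binds the cap without recruiting the scaffold and represses translation, had 698, 606 and 489 counts, or 253, 255 and 234 TPM. The TPM of Eif4e2 was 3.24 and 3.09 times that of Eif4e in OG2 and ICR MEFs and 8.42 times in the library labelled ESC. Eif4e differed by 0.04 on the CPM scale (adjusted p of edgeR 0.29) and by -1.50 with TPM. Eif4e2 was past edgeR's test with 1.53 (adjusted p 1.80e-05), a direction that turned to -0.12 with TPM. Eif4e3 had 46, 48 and 9 counts, or 7, 8.52 and 1.93 TPM, and differed by -0.38 (adjusted p of edgeR 0.657). Eif4e1b, a form known from oocytes, had 0 counts in both MEF libraries and 2 in the library labelled ESC, or 0.510 TPM. All these values of Eif4e1b are at or under the floor of 3 counts, so no fold is given, although it is among the 17 genes that passed the fold threshold.

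Of the helicase cofactors, Eif4b had 2885, 2447 and 1171 counts in OG2 MEFs, ICR MEFs and the library labelled ESC, or 279, 277 and 160.3 TPM. Eif4h had 2321, 1970 and 1069 counts, or 367, 363 and 238 TPM. Their differences lay close together, with 0.77 and 0.95 on the CPM scale (adjusted p of edgeR 0.00117 and 3.65e-04) and -0.79 and -0.62 with TPM. Over the 10 eIF4 genes tested, 4 rose and 4 fell by edgeR's test, near the 31.4% and 36% of all genes tested, and their direction with TPM was the opposite for Eif4b, Eif4e2 and Eif4h among those that rose. The SD of the difference over the 11 genes was 1.45, against 0.197 between the MEF libraries and 0.186 from counting error over the 10 genes with a count in every library.

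**Figure D3:**
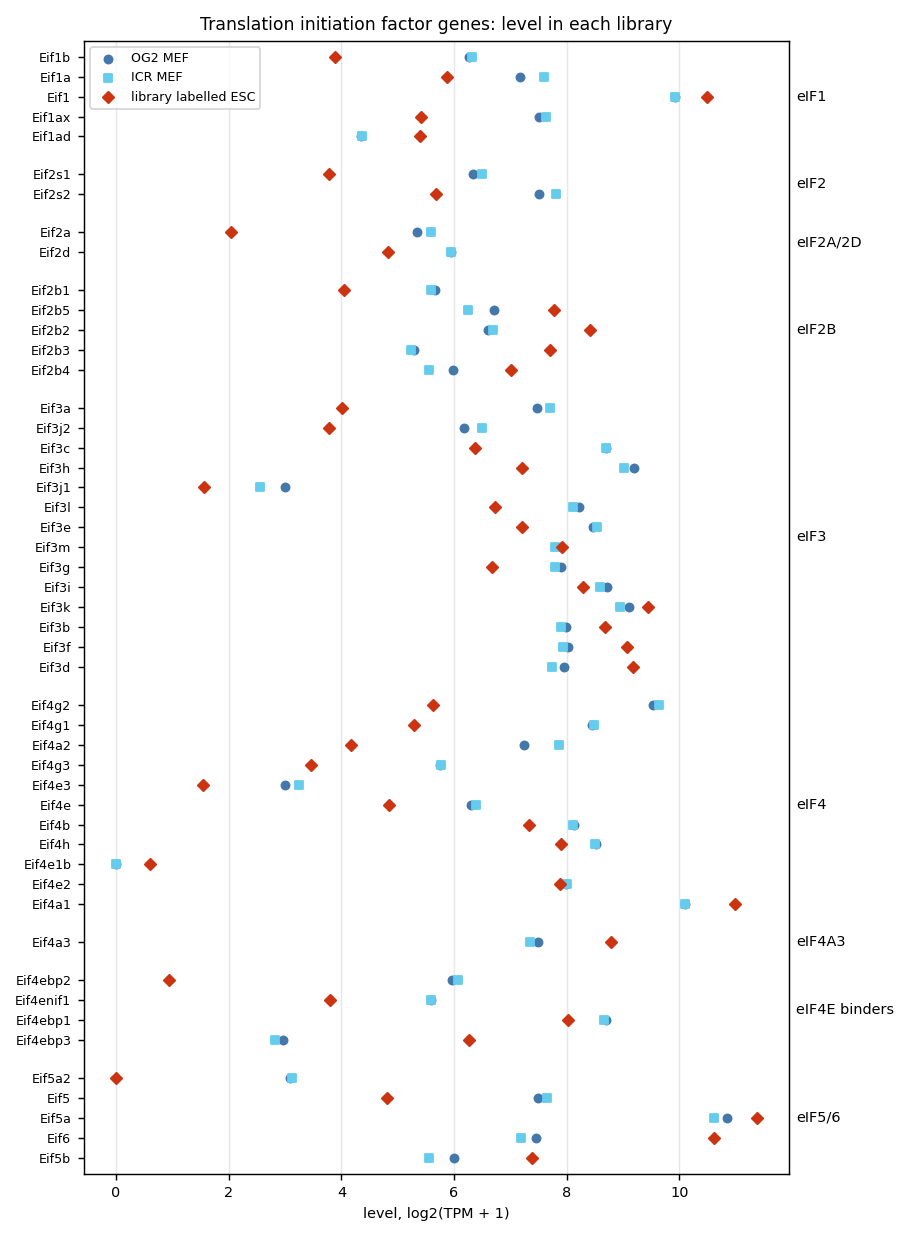
Level of each of the 49 genes as log2(TPM + 1), with OG2 MEFs as dark blue circles, ICR MEFs as light blue squares and the library labelled ESC as red diamonds. The MEF symbols nearly coincide. The red diamonds lie left of them for most genes, for example Eif4g2 at 48.6 TPM against 742 and 791 in OG2 and ICR MEFs, and right of them for others such as Eif6.

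The binders of eIF4E gave the widest range of all groups. The 4E-BP proteins keep eIF4E from its scaffold until mTOR phosphorylates them. Eif4ebp1 had 938, 787 and 427 counts in OG2 MEFs, ICR MEFs and the library labelled ESC, or 415, 402 and 259 TPM. Eif4ebp2 had 279, 257 and 3 counts, or 61.7, 66.1 and 0.930 TPM. Eif4ebp3 had 11, 8 and 90 counts, or 6.83, 6.10 and 76.1 TPM. MEFs thus held mostly Eif4ebp1 with some Eif4ebp2, and the library labelled ESC held Eif4ebp1 with Eif4ebp3 and almost no Eif4ebp2. Eif4ebp3 rose by 4.58 (adjusted p of edgeR 1.64e-06), the largest difference of the 49 genes, from counts of 11 and 8 in MEFs. An unnamed gene model, AC115631.1, overlaps it on the same strand. Eif4ebp2 fell (adjusted p of edgeR 1.57e-05), and its scaled CPM was 23.1-fold lower than the MEF mean (exact Poisson 95% interval of its 3 counts, 7.89 to 112). Eif4ebp1 was past edgeR's test with 0.94 (adjusted p 3.12e-04), but differed by -0.66 with TPM. Eif4enif1, which encodes a protein that carries eIF4E into the nucleus and to P-bodies, had 321, 283 and 55 counts and differed by -0.49 (adjusted p of edgeR 0.173).

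The start codon factors eIF1 and eIF1A keep the scanning ribosome open until it meets the start codon. Eif1ad, which encodes a protein with an eIF1A-like domain, had 125, 108 and 188 counts, or 19.4, 19.5 and 41.0 TPM. It had the highest difference of its group, 2.59 (adjusted p of edgeR 1.31e-06), and its exons overlap those of Banf1 on the other strand. The lowest was that of Eif1b, with 158, 142 and 21 counts, or 76.0, 78.7 and 13.8 TPM, and a difference of -0.84 (adjusted p of edgeR 0.0573). Eif1, its far more abundant paralog, had 2027, 1743 and 900 counts, or 972, 968 and 1445 TPM and rose by 0.89 (adjusted p of edgeR 4.76e-04). The TPM of Eif1 was 12.8 and 12.3 times that of Eif1b in OG2 and ICR MEFs and 105 times in the library labelled ESC. Eif1a and Eif1ax encode forms of eIF1A, and Eif1a had 896, 988 and 237 counts and differed by -0.04 (adjusted p of edgeR 0.559). Its direction turned to 0.16 with median-of-ratios size factors, to 0.18 with a GC-content correction and to 0.10 without the ICR library. With TPM, Eif1a differed by -1.51 and was at least 1 log2 unit lower than both MEF libraries. The products of Eif2a and Eif2d can bring initiator tRNA without eIF2. Eif2a had 237, 242 and 13 counts, or 39.5, 46.9 and 3.11 TPM, and fell by 2.14 (adjusted p of edgeR 2.53e-04). Eif2d had 312, 267 and 97 counts, or 60.4, 60.4 and 27.5 TPM, and was past the test with 0.37 on the CPM scale (adjusted p of edgeR 0.024), but differed by -1.11 with TPM.

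At the last steps of initiation, eIF5 triggers GTP hydrolysis by eIF2, eIF5B joins the large subunit, and eIF6 holds the large subunit apart until it is released. eIF5A acts in elongation despite its name. Eif5b had 843, 757 and 1898 counts in OG2 MEFs, ICR MEFs and the library labelled ESC, or 62.8, 45.9 and 166 TPM, and rose by 3.19 (adjusted p of edgeR 5.61e-07). Eif6 had 640, 464 and 1117 counts, or 174, 145 and 1559.8 TPM, and rose by 2.98 (adjusted p of edgeR 1.26e-06). Eif5a had 5225, 3950 and 6028 counts, or 1848, 1571 and 2657 TPM, and rose by 2.36 (adjusted p of edgeR 5.58e-06). All 3 were higher in the library labelled ESC than in both MEF libraries with either scale. Eif5a2, another eIF5A gene of restricted expression, had 103 and 90 counts (7.55 and 7.72 TPM) in MEFs and 0 in the library labelled ESC. This is at least 8.30-fold lower than the MEF mean when 3 counts are taken as the floor of the library labelled ESC. Eif5 had 1414, 1367 and 203 counts and fell by 0.82 (adjusted p of edgeR 0.0102). Exons of Eif5b overlap those of Rev1 on the other strand, and those of Eif6 the antisense gene model Gm16098. Of the 49 genes, 19 share exon positions with another annotated gene. For 11 of them such a gene was also among the 29267 genes listed with an expected count. These include Eif2a, Eif2d, Eif3d and Eif3m, which overlap Serp1, Rassf5, Gm17638 and Ccdc73 on the other strand.

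Since members of a complex are compared through their lengths, the length that RSEM assigned to each gene was examined. It is a mean over isoforms weighted by their estimated abundance, so it can differ between libraries. For 31 of the 49 genes the length in the library labelled ESC was within 10% of the MEF mean, for 6 it was below 0.5 times and for 8 above 1.1 times the MEF mean. The 31 include Eif5b, whose length was 4951 bases in OG2 and 7036 in ICR MEFs. The 8 include Eif4e1b, which had 0 counts in both MEF libraries. Eif1ax was the extreme, at 2.99 times, where 785, 749 and 410 counts became 181, 198 and 41.4 TPM in OG2 MEFs, ICR MEFs and the library labelled ESC. It was at least 1 log2 unit higher than both MEF libraries with CPM (1.04) and at least 1 log2 unit lower with TPM (-2.17). In the other direction, Eif2b5 was at 0.294 times, Eif6 at 0.340 times and Eif4a3, the helicase of the exon junction complex, at 0.347 times. Eif4a3 had 611, 453 and 285 counts, or 179, 162 and 440.2 TPM, and rose by 1.06 (adjusted p of edgeR 2.89e-04).

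The scale moved all genes together as well. Over the 12726 genes that had 10 or more counts in a library, the median difference was -0.43 with CPM and -1.54 with TPM, a shift of -1.11. Median-of-ratios size factors shifted it by 0.17 and a pseudocount of 5 by 0.13. Taken relative to these medians, 34 of the 49 factors lay above with CPM and 30 with TPM. Only 4 of the 49 genes were on different sides of the median with CPM and TPM, namely Eif1ax (1.47 and -0.63), Eif2b1 (0.56 and -0.044), Eif3h (0.12 and -0.35) and Eif4e3 (0.046 and -0.034).

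**Figure D4:**
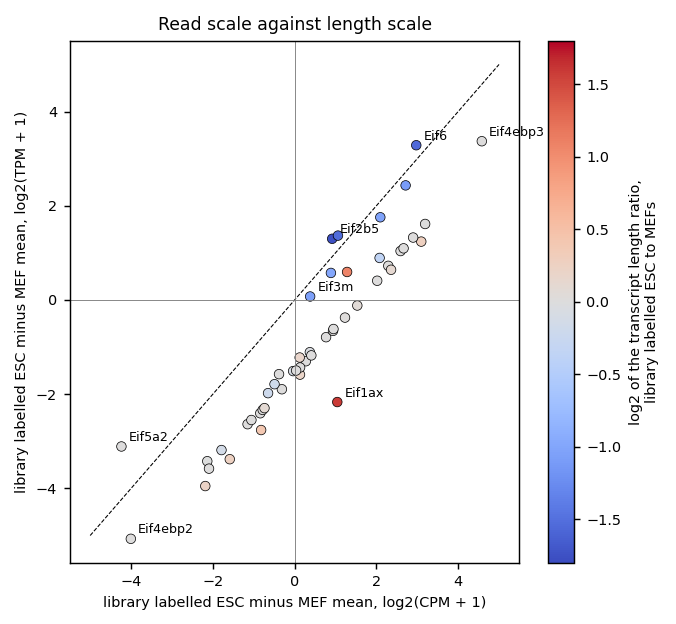
Difference of the library labelled ESC from the MEF mean for the 49 genes with log2(CPM + 1) on the horizontal and log2(TPM + 1) on the vertical axis, coloured by the log2 of the transcript length ratio. The dashed line marks equal values. Most genes form a band below it, Eif1ax with a length ratio of 2.99 lies at 1.04 and -2.17, and Eif6 with a ratio of 0.340 lies above the line.

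The properties of the transcripts were set beside the differences as a description, since all 49 points come from the same 3 libraries. Across the 49 factors, Pearson's r of the difference with GC content was 0.450 (Spearman's rho 0.472), and with the log2 of transcript length it was -0.435 (rho -0.436). Over all genes, r was 0.159 with GC content (rho 0.192, 17729 genes) and -0.311 with length (rho -0.332, 17810 genes). The median GC content was 54.0% for the 17 higher and 42.6% for the 8 lower factors, and their median transcript length in OG2 MEFs was 1483 and 3704 bases. Eif5b is a higher factor with a low GC content of 42.9% and a length of 4951 bases, and Eif4ebp2 and Eif4g1 are lower factors with a GC content of 54.5% and 54.4%. With a GC-content correction over 20 bins of genes, 16 of the 17 higher and 7 of the 8 lower factors kept their call, and the SD over eIF3 was 1.36.

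**Figure D5:**
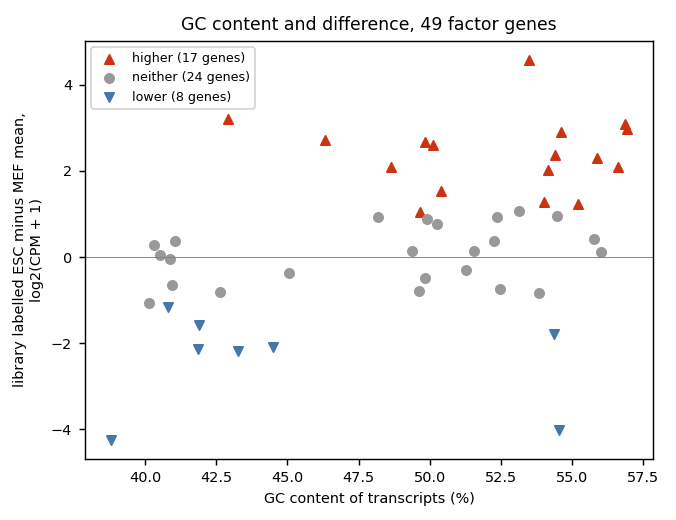
GC content of the transcripts in percent against the difference in log2(CPM + 1) of the library labelled ESC from the MEF mean for the 49 genes. Triangles pointing up are the 17 higher genes, triangles pointing down the 8 lower genes and grey circles the remaining 24. Higher genes lie mostly at the right, with a median of 54.0%, and lower genes mostly at the left, with a median of 42.6%, although with TPM the difference of Eif1ax, Eif3i and Eif4e2 was negative.

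The same spread was computed for complexes of other functions. The SD of the difference was 1.19 over the 14 genes of the proteasome core and 1.1 over 7 genes of the cytosolic chaperonin, where it was 1.24 over eIF2B, 1.47 over eIF3 and 1.45 over eIF4. Between the MEF libraries it was 0.138 and 0.132 for the proteasome core and the chaperonin and 0.128, 0.256 and 0.197 for eIF2B, eIF3 and eIF4, where that of eIF2B was 0.247 with TPM. Highest and lowest subunit of the proteasome core were 2.43 and 2.27 times apart in TPM in OG2 and ICR MEFs. In the library labelled ESC they were 45.4 times apart, against 45.7 times for eIF3 without j. The 45.4 rests on Psmb4, with 1068, 804 and 1139 counts in OG2 MEFs, ICR MEFs and the library labelled ESC. Its TPM were 422, 372 and 2390, and the next highest subunit there, Psmb3, was at 874 TPM. The part of transcript length in the value of Psmb4 was not tested. For eIF3, the lengths of Eif3a and Eif3k were the same in all libraries, at 5176 and 773 bases. The part of this contrast in length was not tested either. All of these SDs of the difference were below the 1.86 of all genes with a count, and whether they differ from it was not tested.

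Between OG2 and ICR MEFs, none of the 49 factors was 1 log2 unit apart, where 2.76% of all genes were. There was 1 library per strain, so no test was made. The differences had a median size of 0.151, and on the CPM scale 36 genes were higher in OG2 and 12 in ICR MEFs. The median of ICR minus OG2 was -0.11 over the 49 genes and 0 over all genes with a count. The largest difference was that of Eif3j1 (-0.91), whose reads are shared with Eif3j2. The next was that of Eif4a2 at 0.52, which was higher in ICR MEFs. In eIF2B all 5 genes were lower in ICR MEFs, from -0.12 for Eif2b3 to -0.45 for Eif2b4. The SD of these differences was 0.128, where counting error alone gives 0.139. With TPM, however, the beta subunit gene Eif2b2 was higher in ICR MEFs (96.5 in OG2 and 103 in ICR MEFs).

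Other genes of the translation pathway were counted in the same way. Of 40 such genes, 38 were counted, and Rps6kb1 and Rps6kb2 were not analysed here. By edgeR's test 11 of the 37 tested rose and 15 fell, where 31.4% and 36% of all genes tested did, shares near those of the list, and their median difference was -0.42. With TPM, 3 of the 38 were at least 1 log2 unit higher and 27 at least 1 log2 unit lower than both MEF libraries, against 9.12% and 43.2% of all genes. None of the 4 eIF2 kinase genes rose, and Eif2ak3 and Eif2ak4, the sensors of unfolded protein and of uncharged tRNA, fell, with differences of -3.07 and -2.68, from 220 and 177 counts in OG2 MEFs and 186 and 180 in ICR MEFs to 5 and 6. Of the 4 eIF2alpha phosphatase and stress genes (Ppp1r15a, Ppp1r15b, Atf4 and Ddit3), 3 fell. Among them was Atf4, by 1.78 (1308, 1483 and 104 counts in OG2 MEFs, ICR MEFs and the library labelled ESC). Of 8 elongation factor genes 7 were tested, and 5 rose and 2 fell, with Eef1d rising by 4.05 (1500, 1085 and 5495 counts). Among the poly(A)-binding group 3 of 5 rose, and Pabpc4 rose by 3.77 (1511, 1359 and 5082 counts). Of 8 initiation helpers 1 rose and 5 fell, among them the ribosome recycling factor gene Abce1 by 2.81 (872, 933 and 32 counts), while Denr rose by 2.17 on the CPM scale but was at 76.5, 107 and 88.2 TPM. Of the 3 release factor genes Gspt1 fell, and of the 6 mTOR pathway genes 2 rose and 2 fell, with Mtor falling by 3.00 (433, 388 and 12 counts). Of the 11 genes that rose, Pabpc1, Paip2b, Eef2, Eef2k, Rptor and Tsc2 had fewer TPM in the library labelled ESC than in both MEF libraries.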

How the data were processed

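RNA-seq was compared in 1 library each of OG2 MEFs, ICR MEFs and R1 ESCs. The authors aligned reads with Bowtie and quantified genes with RSEM, and the submitters' processing notes name the build mm10 and no versions. The deposited values were expected counts, TPM and FPKM per Ensembl gene, together with effective and mean transcript lengths. FPKM as deposited by the authors was not used, since TPM holds the same information within a library. Whether counting used strand is not given in the sources used here. The deposited expected counts were rounded to whole numbers (8, 9 and 8 of the 49 factors had non-whole values in OG2 MEFs, ICR MEFs and the ESC library), and 98.3% of gene IDs were matched to symbols of GENCODE's annotation on GRCm38.

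CPM used TMM factors of 1.09, 1.13 and 0.812, in the same order, and a pseudocount of 1. A gene passed the fold threshold when the ESC library lay at least 1 log2 unit beyond both MEF libraries. The 12663 genes that passed a filter on low counts, 48 of the 49 factors among them, were tested with edgeR 4.0.16 in R 4.3.3 (filterByExpr, glmQLFit, glmQLFTest, Benjamini-Hochberg adjustment), after the script had been tested on simulated data. Other values used Python 3.11.15 with numpy 2.4.6, pandas 2.3.3 and scipy 1.17.1. DESeq2 1.42.0, other size factors, pseudocounts of 0.1 and 5, TPM, a count minimum of 10, a GC-content correction over 20 bins and leaving out each MEF library were alternatives. The MEF libraries are of different strains, and nothing in the labels says that any group holds separate cultures, so p-values measure only the spread between these samples. Intervals and floors of 3 counts cover counting error only. Counts and TPM are given for all genes of eIF2, eIF2B, eIF3 and eIF4 and for the highest and lowest difference of every other group, with the remaining factors by their difference. The members and lists were chosen with earlier results of these data known. The SD that counting error gives was computed by the delta method. RefSeq promoters were on GRCm38.p6, and a window that overlapped the annotated span of its own gene was not printed, which left out Eif4a2. Windows were not compared with other annotated genes.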

Additional observations from a re-analysis of the deposited data

How the results depend on the processing

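With TPM in place of CPM, 11 factors passed the fold threshold upward and 26 downward, against 17 and 8 with CPM. The counts of higher and lower factors stayed within 1.5 times under the other alternatives, and without 1 MEF library they ranged from 17 to 21 and from 8 to 9. In every setting tried, 9 of the 17 higher factors (Eif1ad, Eif2b2, Eif2b3, Eif2b4, Eif3d, Eif3f, Eif4ebp3, Eif5b and Eif6) and 7 of the 8 lower ones (Eif2a, Eif3a, Eif4a2, Eif4ebp2, Eif4g1, Eif4g2 and Eif5a2) kept their call. The directions of Eif1ax (-2.17), Eif3i (-0.37) and Eif4e2 (-0.12) turned with TPM, and the cause was not tested, although RSEM lengths differ between libraries for Eif1ax. By edgeR's test 26 factors rose and 13 fell, against 22 and 9 with DESeq2, 26 and 9 with median-of-ratios size factors in edgeR, and 22 and 14 without a filter on low counts. No factor was 1 log2 unit apart between OG2 and ICR MEFs in any of the 6 alternatives run.

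The SD of the difference over eIF2 (0.354) was 0.466 with TPM and 0.321 to 0.387 without 1 MEF library. Over eIF2B (1.24) it was 1.18 with a pseudocount of 5, 1.54 with TPM, 1.16 with the GC-content correction and 1.22 to 1.27 without 1 MEF library. Over eIF3 (1.47) it was 1.36 with the GC-content correction and 1.43 to 1.52 without 1 MEF library. Over eIF4 (1.45) it was 1.86 and 1.37 with pseudocounts of 0.1 and 5, 1.62 with TPM and 1.42 to 1.48 without 1 MEF library. The 1.86 includes Eif4e1b, under the floor of 3 counts, whose difference was 3.94 with a pseudocount of 0.1 and 1.28 with 1. Without Eif4e1b, an unplanned alternative, the SD was 1.46 with a pseudocount of 1. Between the MEF libraries the SD over eIF3 was 0.256 and fell to 0.120 without Eif3j1 and Eif3j2, an alternative added after the values were seen. No paired analysis was possible because the MEF libraries are of different strains and the ESC side has 1 library, of the R1 line. The edgeR test was not run without a MEF library, since each side would then hold 1 sample with no residual degrees of freedom. The ESC library holds 1717838 counts, so 4 factors with under 10 counts there are the least precise.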
